A study of Sus scrofa with 180 samples.

Results

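The genes described here code for the machinery that moves membrane vesicles between the compartments of a cell, read by microarray in Longissimus (LM), a muscle of the back, and in Semimembranosus (SM), a muscle of the ham, of the same pigs. The set held 64 genes, read by 70 of the 15198 probes on the array. They were chosen by symbol (RAB, ARF, VPS, SNX, STX, VAMP, SEC, COP, AP1 to AP3 and TBC1D) from the study's lists of genes that differed between the muscles, so that measured values chose them. Of the 64 genes, 30 came from the list of genes overexpressed in LM and 34 from the list for SM, out of 3481 genes that the lists named here. The SM list was read in a shortened copy, and SM genes of small difference are missing from it.

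The samples came from 90 pigs of an intercross between a Pietrain type and a synthetic sire line, all homozygous wild type at the HAL and RN loci and slaughtered at commercial weight. Per the paper they formed half-sib families. Its model held terms for sex, slaughter batch (summer or winter), hybridization batch per sire family and carcass weight. The sample labels did not give these, and the muscle fit here held muscle alone. Each pig gave 1 LM and 1 SM sample, taken from the superficial part of the muscle shortly after death, with a single operator for each muscle. The 90 LM and 90 SM arrays lay on separate chips and were scanned on separate days, since 0 chips and 0 scan days held both muscles. A muscle biopsy holds vessels, fat and blood cells beside myofibres, and fewer cells of a type and less RNA per cell cannot be told apart. All values below are log2 intensities centred on each array's median, and a log2 fold change (FC) is LM minus SM.

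Transport vesicles bud under a coat, travel to a target membrane and fuse there. COPII coats (SEC23, SEC24) carry cargo out of the endoplasmic reticulum, COPI coats (COPA) carry it back, and clathrin adaptors (AP1, AP3) sort it at the Golgi apparatus and endosomes. Rab GTPases mark the membranes, TBC1D proteins switch Rab GTPases off, sorting nexins (SNX) and VPS complexes sort and tether in endosomes, and syntaxins (STX) and VAMPs are the SNAREs that fuse membranes. In skeletal muscle the same endosomal routes bring the glucose transporter GLUT4 to the surface.

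Each probe was 60 bases long. The first 30 bases of several probes on which the account below turns are given here, read 5′ to 3′ from the scanner files, with the first 15 bases in capitals because the C content of that stretch is used further on. No position in the genome was given with them.
AP3S1: AACAACACTCTTACCtattctcctgcctct
AP3S2: ATTTGGGGATGTGGTgagtggtaaacagag
VPS13A: GACTTGTTCAAGTGAcagggactgaatata
VPS33B: CTACTAATGCCCCTCctaagagctaaggag
TBC1D9: GTAAATCCCGTCCCCccaacaagagtattg
STX16: TGGGACCTGCTGCGGgatagagatgagttc
RAB1A, listed: CTGTTTCCCGTGGTTggttagaatatattg
RAB24, listed: AGCCCTGTGGAGACTtcctctaggcctact
RAB24, unlisted: AAAGTTTTGGGTGAAagaactgcgcaacct

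All 70 probes passed the spot filters in both muscles, and 25 of them kept all 90 spots in each. In the fit across all probes, 28 member probes were past the threshold with higher values in LM (40.0%, beside 35.7% of the 10987 probes tested) and 38 with higher values in SM (54.3%, beside 47.7%). The lists were drawn from this contrast on these arrays, so that the counts describe how members were found. The median log2 FC was 0.50 over the 32 probes higher in LM and -0.56 over the 38 higher in SM. All probes past the threshold had medians of 0.41 when higher in LM and -0.36 when higher in SM. These sizes, and the fold counts that follow, also describe how members were found. The shortened SM copy lacked small differences, which bears on the SM median, and the 32 LM probes included the 4 not past the threshold. Only 26 of the 70 probes differed by more than 1.5-fold, 8 of them higher in LM and 18 in SM. The smallest members inside the lists were TBC1D17 (log2 FC 0.08) and SNX18 (a) (0.09) for LM. In the shortened SM copy they were SEC24D (-0.28) and SEC24C (a) (-0.32). The LM list was not bounded by size alone. Among probes of member genes that it does not name, that of RAB1A (0.10) differed least toward LM. Those of STX7 (0.17), RAB24 (0.37) and RAB40B (0.47) lay further in. A further TBC1D14 probe (-0.14) may be named in the part of the SM list not read here.

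The families split unevenly between the muscles, as the plot of all members shows. Sorting nexins were mostly higher in LM (8 of 10 genes). All 3 AP1 subunits, the single COPI gene and ARF6 were higher in SM. Of the RAB genes 6 were higher in LM and 10 in SM, of the TBC1D genes 2 and 5, and of the VPS genes 6 and 4. SEC genes divided 3 and 3, STX genes 3 and 2, and VAMP genes 1 and 2. The STX genes higher in LM include STXBP3, which is not a syntaxin. The family medians ran from a log2 FC of 0.49 for SNX to -0.77 for the AP subunits, beside a median of -0.07 over all probes tested. The counts hold for the main processing. VPS28, TBC1D9, STX16, RAB24, VPS26A and TBC1D22B turned direction when a base composition index entered the model. RAB genes then stood at 7 in LM and 9 in SM, and STX genes at 4 and 1. With background corrected by normexp, SNX5 (-0.14), VAMP7 (-0.03), SEC62 (-0.17), TBC1D17 (-0.19), TBC1D22B (-0.22) and SNX18 (a) (-0.02) turned. TBC1D genes then stood at 0 in LM and 7 in SM, SEC genes at 2 and 4, and VAMP genes at 0 and 3. SNX genes stood at 7 and 4, with SNX18 counted on both sides through its probes. SEC62, TBC1D17, TBC1D22B and SNX18 (a) are the 4 probes that were not past the threshold in the main processing, and they also turned without a filter on dim probes. There, and with quantile normalization, TBC1D genes stood at 0 and 7 and SEC genes at 2 and 4.

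**Figure D1:**
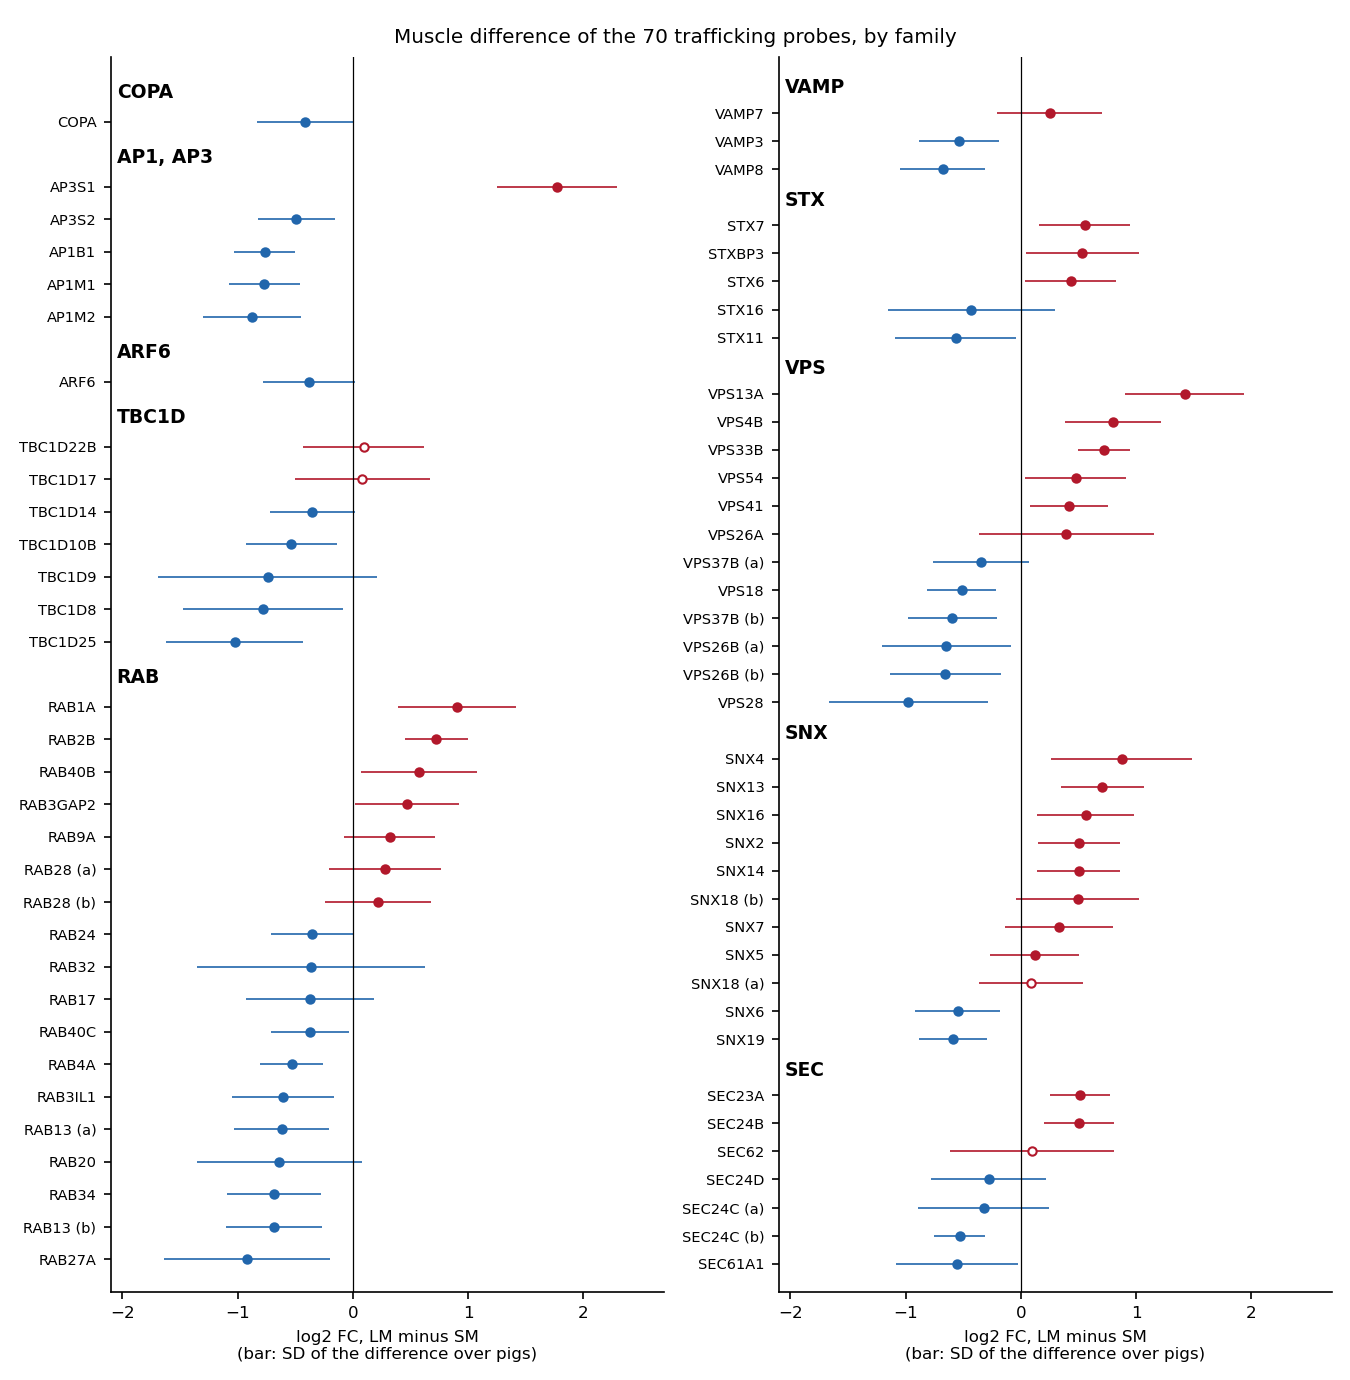
Log2 FC (LM minus SM, x axis) of each of the 70 member probes by family; bars are the SD of the difference over pigs, red is higher in LM and blue higher in SM, and open symbols are the 4 probes not past the threshold. AP3S1 lies at 1.77 and VPS13A at 1.42, while TBC1D25 lies at -1.03; (a) and (b) are the probes of a gene with a pair of probes.

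The adaptor complexes gave the widest contrast between related subunits. AP3S1 and AP3S2 code for alternative sigma subunits of AP-3, the adaptor that routes cargo from endosomes to lysosomes and related organelles. AP3S1 ranged from -1.34 to 0.60 in LM (median -0.19) and from -2.66 to -0.97 in SM (median -2.06). It was higher in LM in 89 of 90 pigs, with a log2 FC of 1.77 ± 0.52 (SD over pigs), a 3.42-fold ratio. Nearly all LM arrays thus lay above the SM arrays, with a narrow overlap. AP3S2 ran the other way, from -1.15 to 0.04 in LM (median -0.52) and from -0.74 to 0.67 in SM (median 0.00). Its log2 FC was -0.49 ± 0.33, with LM higher in 9 of 90 pigs. The groups overlapped over most of their range.

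The AP-1 subunits, which form the clathrin adaptor between the trans-Golgi network and endosomes, were all higher in SM. AP1B1, the large beta subunit, ranged from -0.04 to 0.85 in LM (median 0.43) and from 0.72 to 1.86 in SM (median 1.18), and was lower in LM in 90 of 90 pigs. AP1M1, the medium subunit, had medians of -1.17 in LM and -0.42 in SM, and LM was higher in 1 of 90 pigs. AP1M2, the medium subunit known from epithelia, had medians of -2.20 and -1.30, with LM higher in 0 of 89 pigs. Their log2 FC were -0.77, -0.77 and -0.88, and LM lay below SM for nearly every pig in all 3.

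**Figure D2:**
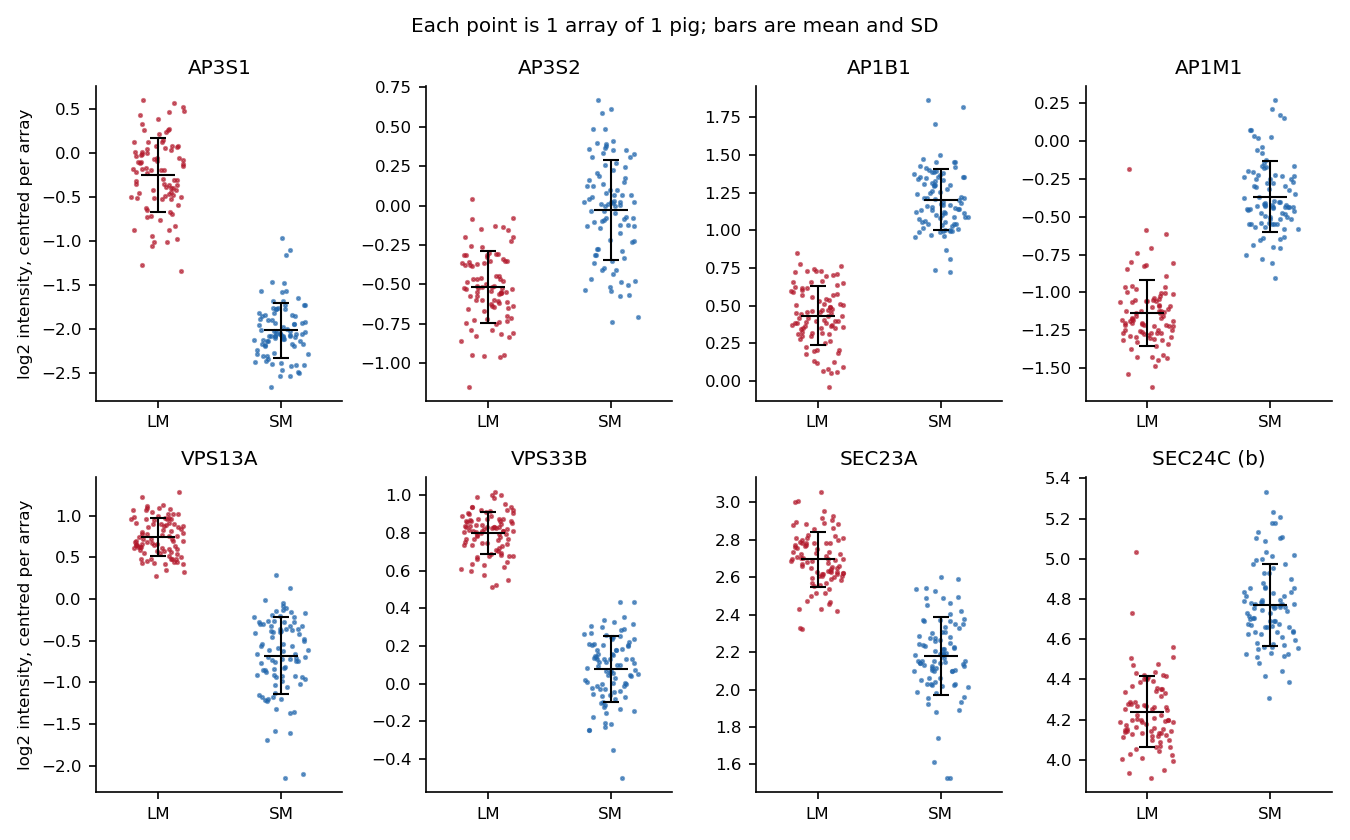
Centred log2 intensity (y axis, its own scale in each panel) of 8 member probes on the 90 LM and 90 SM arrays; each point is 1 array and bars are mean and SD. AP3S1, VPS13A, VPS33B and SEC23A lie higher in LM, and AP3S2, AP1B1, AP1M1 and SEC24C (b) higher in SM.

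Among coat genes of the early secretory route, SEC23A and SEC24B were higher in LM, and SEC24C, SEC24D and COPA in SM. SEC23A, the inner COPII coat protein that acts on the GTPase SAR1, ranged from 2.32 to 3.06 in LM (median 2.69) and from 1.53 to 2.60 in SM (median 2.19). LM was higher in 88 of 89 pigs, with a log2 FC of 0.52 ± 0.26. The SEC24 genes code for the cargo-binding partners of SEC23A. SEC24B had a log2 FC of 0.50 (LM higher in 86 of 88 pigs), SEC24C (b) -0.53 (0 of 85 pigs), SEC24C (a) -0.32 (19 of 84 pigs) and SEC24D -0.28 (23 of 84 pigs). SEC24C (a) and SEC24D were dim, with nearly equal median signals before centring in LM and SM (62.0 and 62.6, and 85.4 and 82.9). The arrays themselves had a median signal of 216 in LM and 170 in SM, so that this SM excess appeared only after centring. By SEC24B and SEC24C (b), the isoforms that bind cargo were split between the muscles. COPA, the alpha subunit of the COPI coat, had a log2 FC of -0.42, and SEC61A1, the channel of the endoplasmic reticulum through which new proteins pass, -0.55. SEC62, a partner of that channel, had a log2 FC of 0.09 and was measured in both muscles of 54 pigs, since 32 SM spots were not well above background.

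Of the Rab GTPases, RAB1A, which acts between the endoplasmic reticulum and the Golgi apparatus, and RAB2B, a Golgi GTPase, were the highest in LM over SM (log2 FC 0.91 and 0.72). RAB2B ranged from -0.81 to 0.18 in LM and from -1.43 to -0.73 in SM, and LM was higher in 90 of 90 pigs. RAB40B (0.57), RAB3GAP2, a subunit of the factor that inactivates RAB3 (0.47), RAB9A, which acts from late endosomes to the Golgi (0.32), and RAB28 (0.28 and 0.22 by its probes) completed the LM side.

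On the SM side stood RAB27A, which docks secretory granules (log2 FC -0.92), both RAB13 probes (-0.62 and -0.68), RAB34 (-0.68), RAB20 (-0.64), RAB3IL1, an exchange factor (-0.61), and RAB4A, which acts in rapid recycling from early endosomes (-0.53). RAB40C (-0.37), RAB17 (-0.37), RAB32, a GTPase of lysosome-related organelles (-0.36), and RAB24, linked to autophagy (-0.36), differed less. RAB13 is known to act in GLUT4 traffic of muscle cells. RAB13 (b) ranged from 0.06 to 1.54 in LM (median 0.74) and from 0.81 to 2.47 in SM (median 1.44). RAB4A ranged from -1.37 to -0.43 in LM and from -0.90 to 0.09 in SM. LM was higher in 3 of 88 pigs for RAB13 (b) and in 4 of 87 for RAB4A, with ranges that overlapped in part. RAB27A was measured in both muscles of 48 pigs, 27 LM spots being not well above background.

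TBC1D25, whose protein binds autophagosomes, had the largest difference toward SM of all members. It ranged from -2.12 to 0.63 in LM (median -0.62) and from -0.78 to 1.47 in SM (median 0.38), a log2 FC of -1.03 ± 0.59. The groups overlapped, and LM was higher in 6 of 86 pigs. TBC1D8 (-0.78), TBC1D9 (-0.74), TBC1D10B (-0.53) and TBC1D14, a regulator of autophagy (-0.35), were also higher in SM. Before centring, the median signal of TBC1D14 was nearly equal in LM and SM (78.3 and 79.2). TBC1D17 and TBC1D22B (0.08 and 0.09) were not past the threshold. ARF6, the small GTPase of endocytic recycling at the plasma membrane, had a log2 FC of -0.38.

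VPS13A and VPS33B were the members whose ranges overlapped least between the muscles. VPS13A codes for chorein, a lipid transfer protein of membrane contact sites whose loss causes a disease of nerve and muscle. It ranged from 0.27 to 1.28 in LM (median 0.72) and from -2.15 to 0.29 in SM (median -0.64). LM was higher in 90 of 90 pigs, with a log2 FC of 1.42 ± 0.51, and the groups touched only at their ends. VPS33B, a regulator of SNARE fusion in late endosomes, ranged from 0.51 to 1.02 in LM (median 0.81) and from -0.50 to 0.44 in SM (median 0.10). It was the 1 member probe of 70 whose groups did not overlap (2.08% of all probes tested), at a log2 FC of 0.72 ± 0.23.

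The subunits of several VPS complexes were found on both sides. VPS4B, the ATPase that takes ESCRT filaments apart, was higher in LM (log2 FC 0.80, LM higher in 89 of 90 pigs). The ESCRT-I subunits VPS28 (-0.98) and VPS37B (-0.34 and -0.59 by its probes) were higher in SM. VPS41 (0.42) and VPS18 (-0.51), subunits of the HOPS complex that tethers late endosomes to lysosomes, also differed in direction, although VPS41 fell to 0.05 ± 0.03 (SE) and lost its call with normexp. So did VPS26A (0.40) and VPS26B (-0.65 and -0.66 by its probes), alternative subunits of retromer, which returns receptors from endosomes. VPS54, a subunit of the GARP tether at the Golgi, had a log2 FC of 0.47.

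Sorting nexins higher in LM were SNX4 (log2 FC 0.87), SNX13 (0.71), SNX16 (0.56), SNX2 (0.51), SNX14 (0.50), SNX18 (b) (0.49), SNX7 (0.33) and SNX5 (0.12). SNX4 was measured in both muscles of 59 pigs, since 31 SM spots were not well above background. SNX13 ranged from -0.47 to 0.40 in LM (median 0.02) and from -1.54 to 0.01 in SM (median -0.64), and LM was higher in 87 of 88 pigs. SNX6, a partner of SNX2 and SNX5 in endosomal exit coats, was higher in SM (-0.55), as was SNX19 (-0.59), a relative of SNX13 and SNX14. SNX18 (a) was not past the threshold at 0.09.

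The SNARE genes, taken with STXBP3, were divided as well. STX7 (log2 FC 0.56) and VAMP7 (0.25), of late endosomes, STX6 (0.43), of the trans-Golgi network, and STXBP3, a Munc18 protein that acts in GLUT4 vesicle docking (0.53), were higher in LM. VAMP8 (-0.68), VAMP3, of recycling endosomes (-0.53), STX11, known from cytotoxic granule release (-0.57), and STX16 (-0.43) were higher in SM. For STX16, 16 LM spots were non-uniform and set missing. With spots that failed the filters kept, STX16 fell to -0.19 ± 0.12 (SE) and lost its call. Before centring, its median signal was higher in LM (4269) than in SM (4074). VAMP8 ranged from 2.50 to 3.98 in LM (median 3.14) and from 3.17 to 4.52 in SM (median 3.82), and LM was higher in 3 of 90 pigs. VAMP3 was higher in LM in 8 of 90 pigs.

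Other trafficking genes of a list of 130 were divided too. The study's lists named 29 of them, of which 18 were past the threshold with higher values in LM and 11 in SM. Over all probes tested these shares were 35.7% and 47.7%. The SM list was read in a shortened copy, so that SM genes may be missing from this count. SAR1B, the GTPase that starts the COPII coat (1.73), KDELR3, a retrieval receptor (1.61), EEA1, an early endosome tether (1.28 and 0.98 by its probes), SCFD1 (1.04 and 1.16) and the SNARE SNAP23 (1.12) were higher in LM. EHD2, a protein of caveolae (-0.81 and -0.93), TMED3 (-0.42 and -0.93), ARL2 (-0.54) and TRAPPC1 (-0.55) were higher in SM. These genes too were named only because they differed.

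Markers of other cell types could be read only where the study's lists of differing genes named them, so that each marker counted here had to differ. Of 7 endothelial markers 3 were named, of 5 smooth muscle markers 5, and of 7 fibroblast markers 2, and all of these were higher in SM (beside 47.7% of all probes tested). Of 8 macrophage markers 4 were named and 3 higher in SM, and of 8 adipocyte markers 6 were named and 5 higher in SM. The summed macrophage signal ran from -0.41 to 8.74 in LM (median 1.03) and from 1.36 to 4.70 in SM (median 3.04). Summed smooth muscle signal had medians of 9.55 in LM and 9.98 in SM, endothelial 2.21 and 2.74, fibroblast 2.97 and 3.75, red cell 4.18 and 5.29. The adipocyte sum ran the other way (7.91 and 6.94), and its gene LPL was higher in LM (log2 FC 1.03). Summed muscle fibre signal was high in both (10.8 and 11.2). Of 10 fibre markers 8 were named, and 6 of them (CKM, MYL1, NEB, RYR1, TRDN and TTN) were higher in LM, with a median log2 FC of 0.83 over 14 probes, whereas ACTA1 and MB were higher in SM. The part of these cells in the values of RAB27A, RAB32, STX11, VAMP8 or any other member was not tested.

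Some members could be read by a further probe of the same transcript sequence that the lists, as read here, do not name. There were 8 such probes, tied to a gene only by the sequence identifier in the probe name, and 5 of them passed the filters. RAB24 reversed between its probes. The listed RAB24 probe had medians of 0.17 in LM and 0.53 in SM and a log2 FC of -0.36, with LM higher in 15 of 86 pigs. The unlisted RAB24 probe ranged from 0.73 to 1.69 in LM (median 1.11) and from 0.37 to 1.26 in SM (median 0.72). Its log2 FC was 0.37, with LM higher in 85 of 90 pigs. The probes share no end of 8 or more bases, and across pigs they correlated with r = 0.04 in LM (n = 86) and 0.15 in SM (n = 90).

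RAB1A differed by probe in size. The listed RAB1A probe ranged from -0.44 to 1.62 in LM (median 0.48) and from -1.85 to 0.74 in SM (median -0.47), with LM higher in 87 of 88 pigs. The unlisted RAB1A probe had medians of 1.28 in LM and 1.20 in SM, a log2 FC of 0.10, and LM higher in 52 of 89 pigs. Its groups overlapped almost wholly. The probes correlated with r = 0.24 in LM (n = 90) and 0.10 in SM (n = 88). For STX7 (0.56 listed, 0.17 unlisted), RAB40B (0.57 and 0.47) and TBC1D14 (-0.35 and -0.14) the direction was shared. The STX7 probes correlated at 0.96 in LM and 0.89 in SM, and the RAB40B probes at 0.95 and 0.93, whereas the TBC1D14 probes gave -0.29 and 0.26.

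**Figure D3:**
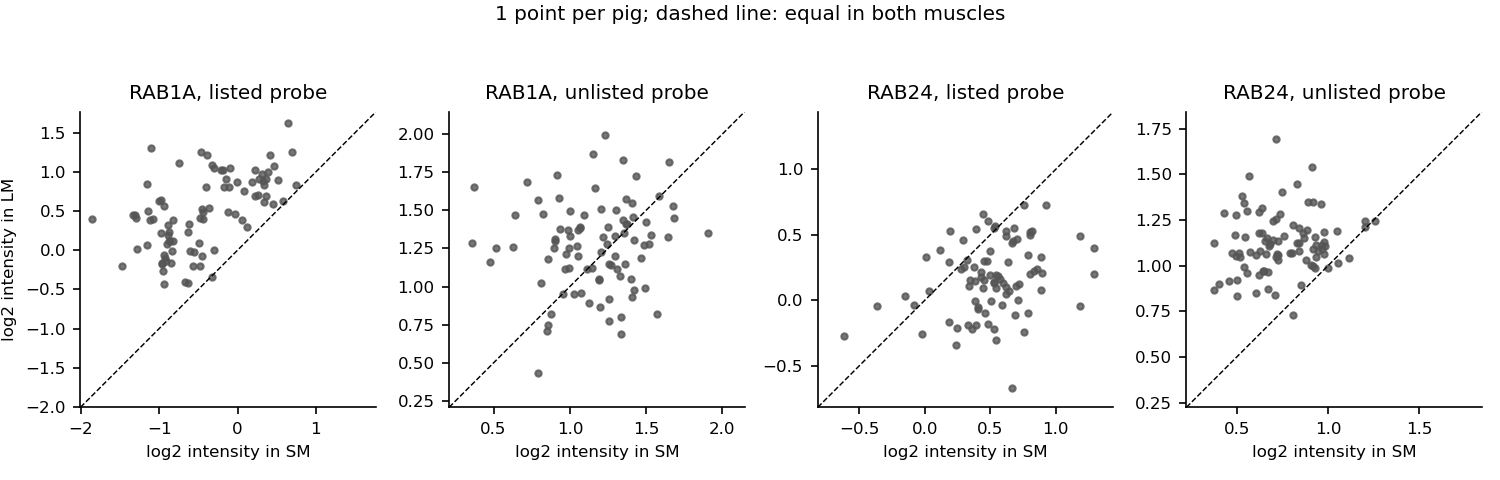
Centred log2 intensity in SM (x axis) and LM (y axis) of the listed and unlisted probes of RAB1A and RAB24, with 1 point per pig and a dashed line at equal values. The listed RAB1A points follow a slope above the line while the unlisted ones scatter around it, and RAB24 lies mostly below the line by its listed probe (log2 FC -0.36) and above it by its unlisted probe (0.37).

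Whether the members varied between pigs in the same way in both muscles was tested apart from the muscle difference. The pig share, the part of the variance within muscles that was common to both muscles of a pig, was estimated per probe and can fall below 0. Its median was 0.07 over the members and 0.06 over all probes tested. The test of pig passed the threshold for 2 of 70 member probes (2.86%, beside 2.48% of all probes). They were the listed RAB1A probe, with a share of 0.54 over 88 pigs (limma moderated F, adjusted p = 2.91e-06), and VPS26B (a), with 0.40 over 90 pigs (adjusted p = 0.00262). With chip in the model, where 0.255% of all probes passed, RAB1A kept a share of 0.39 (adjusted p = 0.0895) and VPS26B (a) 0.13 (adjusted p = 0.488), and 0 members passed. The unlisted RAB1A probe had a share of 0.08 (adjusted p = 0.501), and VPS26B (b) one of 0.11. The difference in share between probes was not tested. Sire family, sex and slaughter batch were not in the model, so that a pig share cannot be told apart from them. SEC24C (b) (0.32), RAB17 (0.29) and RAB24 (0.29) followed without passing, and VPS33B (-0.20), RAB3GAP2 (-0.18) and SNX6 (-0.16) were lowest.

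The spread between pigs was larger in SM than in LM for 44 of 70 member probes (62.9%, beside 54.5% of all probes). SNX13, SNX16 and VPS13A, all higher in LM, spread least there against SM. The SD of VPS13A was 0.22 in LM and 0.46 in SM, that of SNX13 0.18 and 0.34, and that of SNX16 0.21 and 0.40. VPS28 (0.64 in LM and 0.40 in SM), TBC1D9 (0.85 and 0.56) and RAB2B (0.23 and 0.16) went the other way. TBC1D9 and VPS28 were bright probes that lost spots in LM only. In LM, 8 TBC1D9 spots were non-uniform and 7 saturated, and for VPS28 7 and 3, beside 0 in SM. RAB32 spread widely in both (0.83 and 0.77), reaching 3.81 in LM from a median of 1.39, and LM was higher in 27 of 90 pigs.

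**Figure D4:**
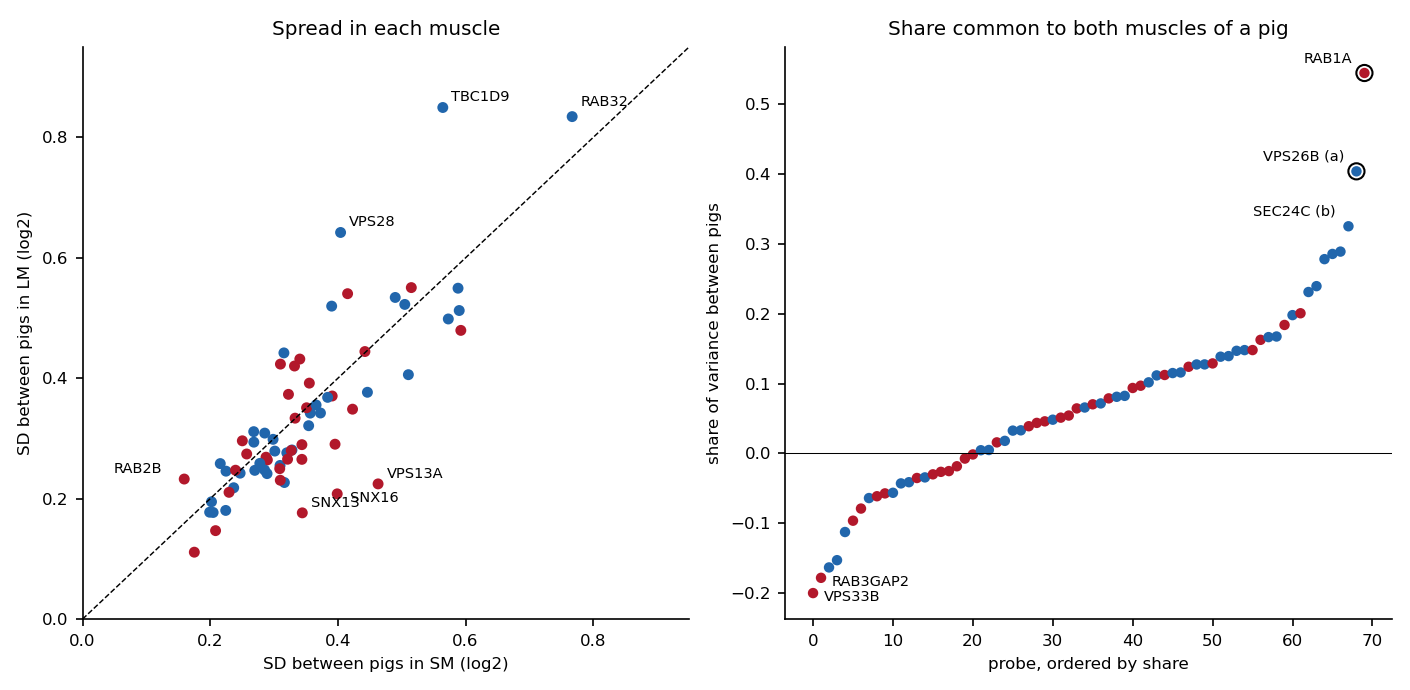
Left, SD between pigs in SM (x axis) and LM (y axis) for the 70 member probes, in log2 units, with a dashed line at equal SD; right, pig share of each probe in ascending order, with rings around those past the threshold. RAB1A (0.54) and VPS26B (a) (0.40) lie above the other probes.

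Chip was a source of variance within muscles. It passed the threshold for 38 of 70 member probes in LM (54.3%, beside 58.8% of all probes) and for 10 in SM (14.3%, beside 14.0%). The RAB family, with 18 of the 70 member probes, held 12 of the 38 and 0 of the 10.

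For fixed pairs of probes the correlation across pigs was taken in each muscle, giving 44 relations from 22 pairs, of which 16 passed after adjustment within that family. Probes of the same gene made up 10 of the 16. RAB28 reached r = 0.97 in LM and 0.96 in SM, RAB13 0.94 and 0.93, VPS37B 0.92 and 0.95, and VPS26B 0.68 and 0.84, each with a permutation p of 1e-05, the smallest that 100000 permutations can give (adjusted p = 4.89e-05). SNX18 gave 0.55 in LM and 0.27 in SM, where the permutation p was 0.0102 (adjusted 0.0298). The SEC24C probes did not pass (r = 0.19 in LM and 0.07 in SM), though within chips they gave 0.33 and 0.27 (adjusted permutation p = 0.0077 and 0.0289).

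Between partner genes 6 of 32 relations passed, 5 of them in SM. SNX2 and SNX6, which join in the same coats, ran opposite in SM (n = 89, r = -0.43, permutation p = 3e-05, adjusted 0.000132). By rank the relation was rho = -0.37 (permutation p = 0.0005, adjusted 0.002), without the 2 most distant pigs r was -0.38, and within chips -0.43. With both probes taken as deviations from the base composition index explained further on, r was -0.42 (adjusted permutation p = 0.000264). SEC23A and SEC24C (b) also ran opposite in SM (n = 89, r = -0.39, permutation p = 0.00026, adjusted 0.00104). Their rho was -0.40 (permutation p = 0.00016, adjusted 0.000704), with -0.39 without the most distant pigs and -0.24 within chips. In SM these probes followed the index in opposite directions (r = -0.48 for SEC23A and 0.58 for SEC24C (b)), and as deviations from it they gave r = -0.16 and no longer passed (adjusted permutation p = 0.228).

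VPS26A and SNX2, of retromer and its sorting nexins, varied together in SM (n = 89, r = 0.34, permutation p = 0.00129, adjusted 0.00473). Their rho was 0.34 (permutation p = 0.00144, adjusted 0.00528), with 0.28 without the most distant pigs and 0.30 within chips. Both followed the index in the same direction in SM (r = -0.41 and -0.48), and as deviations from it they gave r = 0.18 (adjusted permutation p = 0.183). VPS18 and VPS41 did so in LM (n = 89, r = 0.28, permutation p = 0.00881, adjusted 0.0298). Their rho was 0.27 (permutation p = 0.00961, adjusted 0.0302), with 0.23 and 0.25, and r = 0.26 less the index (adjusted permutation p = 0.0388). STX7 and VAMP8, SNAREs of late endosomes, gave r = -0.27 in SM (n = 90, permutation p = 0.0102, adjusted 0.0298) and -0.39 within chips, but rho = -0.25 did not pass (permutation p = 0.0197, adjusted 0.0511). STX6 and VAMP3 gave r = 0.26 in SM (n = 89, permutation p = 0.0124, adjusted 0.034) and rho = 0.30 (permutation p = 0.00391, adjusted 0.0132), and within chips r = 0.17 no longer passed (adjusted permutation p = 0.172). Without the most distant pigs these were -0.24 and 0.24, and less the index -0.23 (adjusted permutation p = 0.073) and 0.30 (0.0151). Whether any pair differed between the muscles was not tested.

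The muscles also differed in an index of base composition that all arrays share. The index is the mean of the 215 probes with at least 8 C in their first 15 bases less that of the 3955 probes with at most 2, and it averaged -0.37 in LM (SD 0.34) and 0.38 in SM (SD 0.31). Over all tested probes with 7 or more C in that stretch, the median log2 FC was -0.42. TBC1D9, VPS28 and STX16 followed the index closely within each muscle (r = 0.91 in LM and 0.92 in SM, 0.88 and 0.96, and 0.79 and 0.89). Their probes held 7, 8 and 4 C. VPS33B, with 7 C, gave r = -0.02 and -0.08, and RAB4A, with 8 C, 0.45 and 0.44. Members are part of the index: VPS28 and RAB4A are among its C-rich probes, and 20 member probes, VPS13A included, among its C-poor probes.

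With the index in the muscle model, 6 of 70 member probes turned direction. TBC1D9 went from -0.74 to 0.85, STX16 from -0.43 to 0.88, VPS28 from -0.98 to 0.20, RAB24 (listed) from -0.36 to 0.05, VPS26A from 0.40 to -0.00, and TBC1D22B from 0.09 to -0.02. TBC1D25 (-1.03 to -0.27), SNX19 (-0.59 to -0.26), SNX2 (0.51 to 0.18), VPS13A (1.42 to 1.12) and the listed RAB1A probe (0.91 to 0.43) kept their direction at a smaller size. Across all members, 51 of 70 probes were smaller in size with the index. Of the 32 probes higher in LM, 29 had a lower log2 FC with it. The number of members past the threshold went from 66 to 58, of which 26 were higher in LM and 32 in SM. RAB27A (-0.92 to -0.19), RAB17 (-0.37 to -0.09), RAB28 (0.28 to 0.13 and 0.22 to 0.11), SNX7 (0.33 to 0.10), VAMP7 (0.25 to 0.02), SNX5, RAB24 and VPS26A lost their calls, and SNX18 (a) gained one (0.20). AP3S1 (1.71 with the index), VPS33B (0.71), RAB2B (0.78), AP1B1 (-0.78) and AP1M2 (-0.81) stayed close to their values. The remaining AP-1 subunit, AP1M1, went from -0.77 to -0.49, and followed the index with r = 0.54 in LM and 0.50 in SM. Muscle and index move together, so that their parts in these values cannot be told apart.

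**Figure D5:**
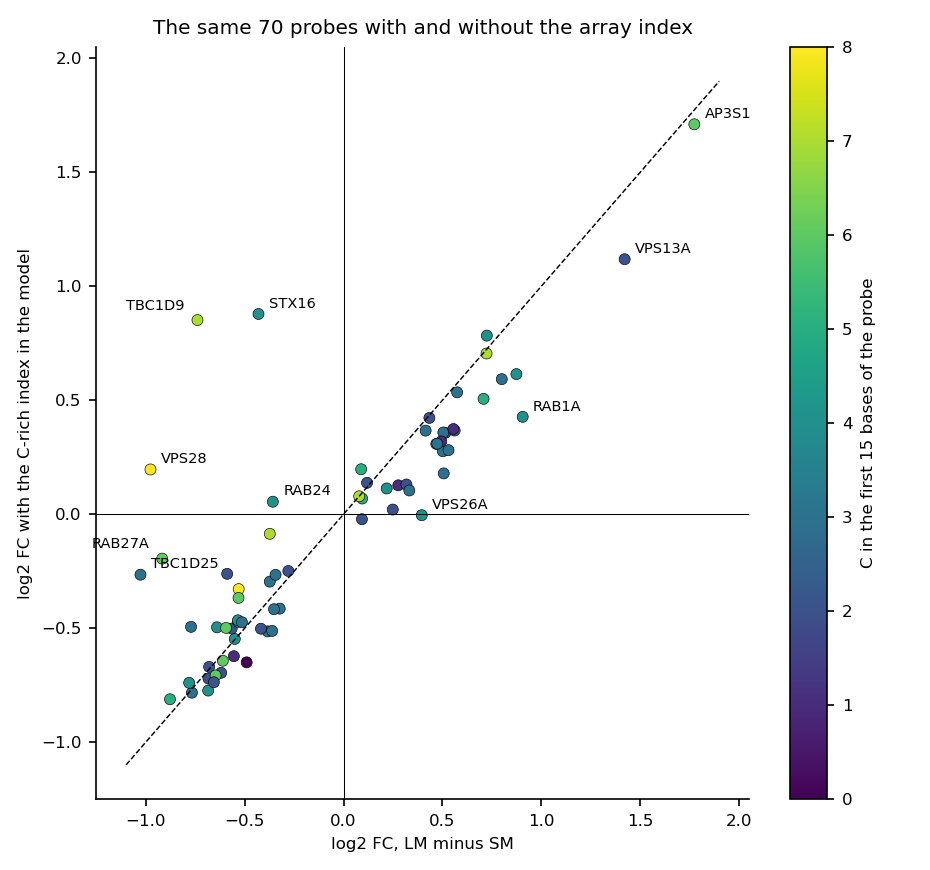
Log2 FC (LM minus SM) of the 70 member probes without (x axis) and with (y axis) the C-rich index in the model, coloured by the number of C in the first 15 bases; the dashed line marks equal values. TBC1D9 (0.85) and STX16 (0.88) lie above 0 with the index and below it without, while AP3S1 (1.77 and 1.71) stays near the line.

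Base composition also differed between the sides. The median GC content of the probes was 37.5% for members higher in LM and 45% for those higher in SM, beside 40% and 45% for all probes past the threshold in each direction. Of the members with at most 40% GC, 18 were higher in LM and 7 in SM. All tested probes with at most 40% GC had a median log2 FC of 0.05, beside -0.07 over all probes tested. By family, the median GC content was 35% for SNX and 45% for RAB, AP, TBC1D and VPS. The part of composition in the single values was not tested beyond the index.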

How the data were processed

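RNA of 180 muscle samples (90 LM, 90 SM) was hybridised to 1-colour 15K arrays, and the authors deposited the scanner output. Per the file headers, spot intensities were background-subtracted and read with Feature Extraction 9.5.3.1 or 9.5.1.1, the earlier version on LM arrays only. The authors' series table holds 6903 probes in the natural log (ln) of the same deposited intensity, less a constant per array, and was used only as an alternative.

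Members and gene lists were chosen with earlier results of these data known. Genes were named from the paper's lists of differing genes, read only for probe and symbol. All 64 member symbols were pig symbols in RefSeq (Sscrofa11.1).

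The log2 intensities were centred on each array's median. Spots not well above background, non-uniform or saturated were set missing, as were values over 3 SD from the probe mean (7460 values). Probes missing on over 50% of the arrays of a muscle were dropped, leaving 10987 of 15198. Muscle was fitted with limma 3.58.1 (R 4.3.3), with Benjamini-Hochberg adjusted p-values over all probes and a threshold of 0.05. The pig effect was a nested F test of pig beyond muscle with limma's moderated variance, on pigs measured in both muscles. The chip effect was the same test within a muscle, on chips with at least 3 arrays. Correlations used 100000 permutations, with no term for sire family or sex. The muscle, pig and chip tests were checked on simulated data. Probes given a chip effect were left out of the check of the muscle test. That check therefore does not cover muscle differences that arise from chips.

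Animals pair the samples. Across the members, the deviations of a pig's LM and SM arrays from the muscle means correlated with a median r of 0.12, and 47 of 90 pigs were above 0.1. No chip and no scan day held both muscles, so that chip and muscle cannot be told apart. Alternatives were other centring, quantile normalization, normexp, other spot filters, a base composition index, pig and chip blocks and the deposited table. Text names were chosen by size of difference (8 largest each way and the 3 smallest), by pig share (5 highest, 3 lowest), by SD ratio (3 highest, 3 lowest), and as fixed gene pairs; other names were added after their values were seen. The sequences of some probes are not reported here.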

Additional observations from a re-analysis of the deposited data

How the results depend on the processing

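Of the 770 values that the 70 members took under 11 other settings, 762 moved by less than the SD over pigs. The 8 that moved further were TBC1D9, STX16, VPS28, RAB24, RAB27A (-0.19), SNX19 (-0.26) and TBC1D25 (-0.27) with the C-rich index and VPS41 (0.05) with normexp. The SD over pigs was as large as many of the differences, so that a value could turn direction within it. In all, 19 of the 770 values turned direction. Called differences reversed in 7 cases. With the C-rich index in the model these were TBC1D9 (0.85), STX16 (0.88), VPS28 (0.20), RAB24 (0.055) and VPS26A (-0.0045), and with normexp background correction SNX5 (-0.14) and VAMP7 (-0.030). In paired fits with pig as a replicate block, 28 members were past the threshold as higher in LM and 38 as higher in SM, as without it, and the block was used in no other result. A pig effect was called for 5 members after normexp and for 0 with chip as a fixed term. A chip effect in SM was called for 18 members after normexp and for 19 with the index. The causes were not tested. With the index in the muscle model 9 calls were lost and 1 gained, and after normexp 2 were lost (VAMP7 and VPS41) and 3 gained. Those gained after normexp were SEC62 (-0.17), TBC1D17 (-0.19) and TBC1D22B (-0.22), called as higher in SM against their direction in the main fit. Among the reversed cases, RAB24, VPS26A and VAMP7 were no longer called. Within chips, 22 in place of 16 correlations passed, and as deviations from the index 14. Both of these were correlation settings chosen after seeing the data, as was the use of arrays read with the later software version alone (27 members higher in LM and 37 in SM). Signal over background limited SEC62, SNX5, SNX4, RAB27A, STX11 and TBC1D17, each measured in both muscles of fewer than 60 pigs.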
